A study of Mus musculus with 12 samples.

Results

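Matrix proteases and their inhibitors were taken as the protein-coding genes with an Mmp, Timp, Adam, Adamts or Adamtsl symbol and number on the GRCm38 annotation that had at least 10 counts in 3 or more of the 12 libraries. The symbols take in 82 genes, of which 47 met the count rule, out of 13266 protein-coding genes that met it and 53379 gene IDs in all. The 47 were 13 matrix metalloproteinases (MMP), all 4 tissue inhibitors of metalloproteinases (TIMP), 12 ADAM genes, 13 ADAMTS genes and 5 ADAMTS-like genes. A further Mmp gene is not analysed here. Of the 35 genes below the count rule, 21 were ADAM genes, 8 MMP and 6 ADAMTS genes, and 16 had no count in any library. The rule used no difference between groups, but Mmp13, Mmp25 and Mmp27 reached 10 counts in KO pools only, so the direction of their differences is in part set by the rule.

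RNA was sequenced from interscapular brown adipose tissue, the heat-producing fat pad between the shoulder blades, of 12-week-old C57BL/6 mice killed at zeitgeber time 9. The 4 groups held 3 pools each: wild type (WT, control littermates) at room temperature, Cdk7 bKO (KO, a knockout of the kinase gene Cdk7 described as specific to brown fat) at room temperature, and the same genotypes killed when 6 h of cold with food had passed. Each pool joined 250 ng of RNA from each of 2 mice of the same group, and the 3 pools of a group are called biological triplicates. The driver of the deletion, the sex of the mice and the temperature of the cold are not given in the sources used here, and the control littermates are labelled wild type without further alleles.

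MMPs are zinc proteases that cut collagens, other matrix proteins and growth factors, and they are made as inactive proforms. TIMPs bind the active site of these enzymes, and TIMP3 also blocks several ADAM and ADAMTS proteases. ADAMs are membrane proteases that shed the outer parts of receptors and ligands, ADAMTS are secreted proteases of proteoglycans, procollagens and microfibrils, and ADAMTS-like proteins share their ancillary domains but have no protease domain. In fat, these genes are mostly known from fibroblasts, vessels and macrophages that remodel the matrix around adipocytes, and some are also made by adipocytes.

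Reads assigned to genes ran from 27609717 to 36792555 per library. Levels are given in CPM, the read counts brought to a common library total with edgeR's TMM factors. Log2 fold changes are printed ± their standard error and mean CPM ± SD, each group with n = 3 pools. FDR is the Benjamini-Hochberg adjusted p of the quasi-likelihood F-test in edgeR over the 15208 genes tested, and a difference passed, or was called, when it was under 0.05. Cdk7 itself stood at 16.4, 15.1 and 16.1 CPM (WT) against 4.35, 5.15 and 5.77 CPM (KO) at room temperature. For Cdk7 the cold pools had 17.95, 16.1 and 15.7 CPM (WT) against 5.39, 4.85 and 5.39 CPM (KO), so the KO pools were all lower. The brown adipocyte gene Ucp1 was present in every pool, and the 10 brown adipocyte markers summed to 18011 to 20252 CPM in WT and 11901 to 14896 CPM in KO at room temperature. Skeletal muscle transcripts were uneven between pools of the same group, and replicate 6 of KO and replicate 2 of WT, both at room temperature, were the richest in them (muscle-rich libraries below). The 15 muscle markers summed to 170.2 to 1064 CPM (WT) against 41.9 to 1364 CPM (KO) at room temperature and to 71.4 to 169 CPM against 46.7 to 295 CPM in the cold, and counts of members are also given without both.

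The level of these genes per length of exon differed by family. In WT at room temperature Timp3 had 26.9 CPM per kb, Timp4 6.53, Timp2 4.66 and Timp1 0.251 CPM per kb. Among MMPs the order was Mmp19 with 13.3, Mmp2 with 4.45, Mmp28 with 2.77 and Mmp15 with 2.40 CPM per kb, and Mmp9, gelatinase B, had 0.241 CPM per kb. Among ADAMs Adam9 (18.8) and Adam12 (14.7) led in CPM per kb, followed by Adam15 (7.45), Adam17 (6.35) and Adam10 (5.97). Adamts1 (4.86), Adamts9 (2.995) and Adamts10 (2.08) led the ADAMTS family, and Adamtsl3 (2.72) led the ADAMTS-like genes in CPM per kb. In that group Timp3 had more CPM per kb than each protease of the 47, while in cold WT Adam12 had 37.2 CPM per kb against 28.5 for Timp3.

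Comparing KO with WT asks which of these genes differ in brown fat with the Cdk7 deletion, at rest and during cold. Most members that passed the test were higher in KO at both temperatures. At room temperature 19 of 47 members were higher and 6 lower, or 40.4 and 12.8%, beside 19.3% higher and 21% lower of all genes tested. In the cold 27 were higher and 7 lower, or 57.4 and 14.9%, beside 25.9% and 27.8% of all genes. The median log2 fold change of the members was 0.52 at room temperature and 0.65 in the cold, where all genes tested had medians of 0.00 and 0.01. All KO pools lay above all WT pools for 27 members at room temperature and 30 in the cold, which 23.9% and 30.6% of all genes did. The reverse held for 5 and 8 members, for which the share of all genes is not given here. Mmp13 at both temperatures and Mmp25 at room temperature are among those above, and Mmp13 among those called higher in the cold. Both reached 10 counts in KO pools only, so they add nothing to the direction. Among the 37 members with a mean of at least 1 CPM over all libraries, 16 were higher and 4 lower at room temperature and 23 and 6 in the cold.

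**Figure D1:**
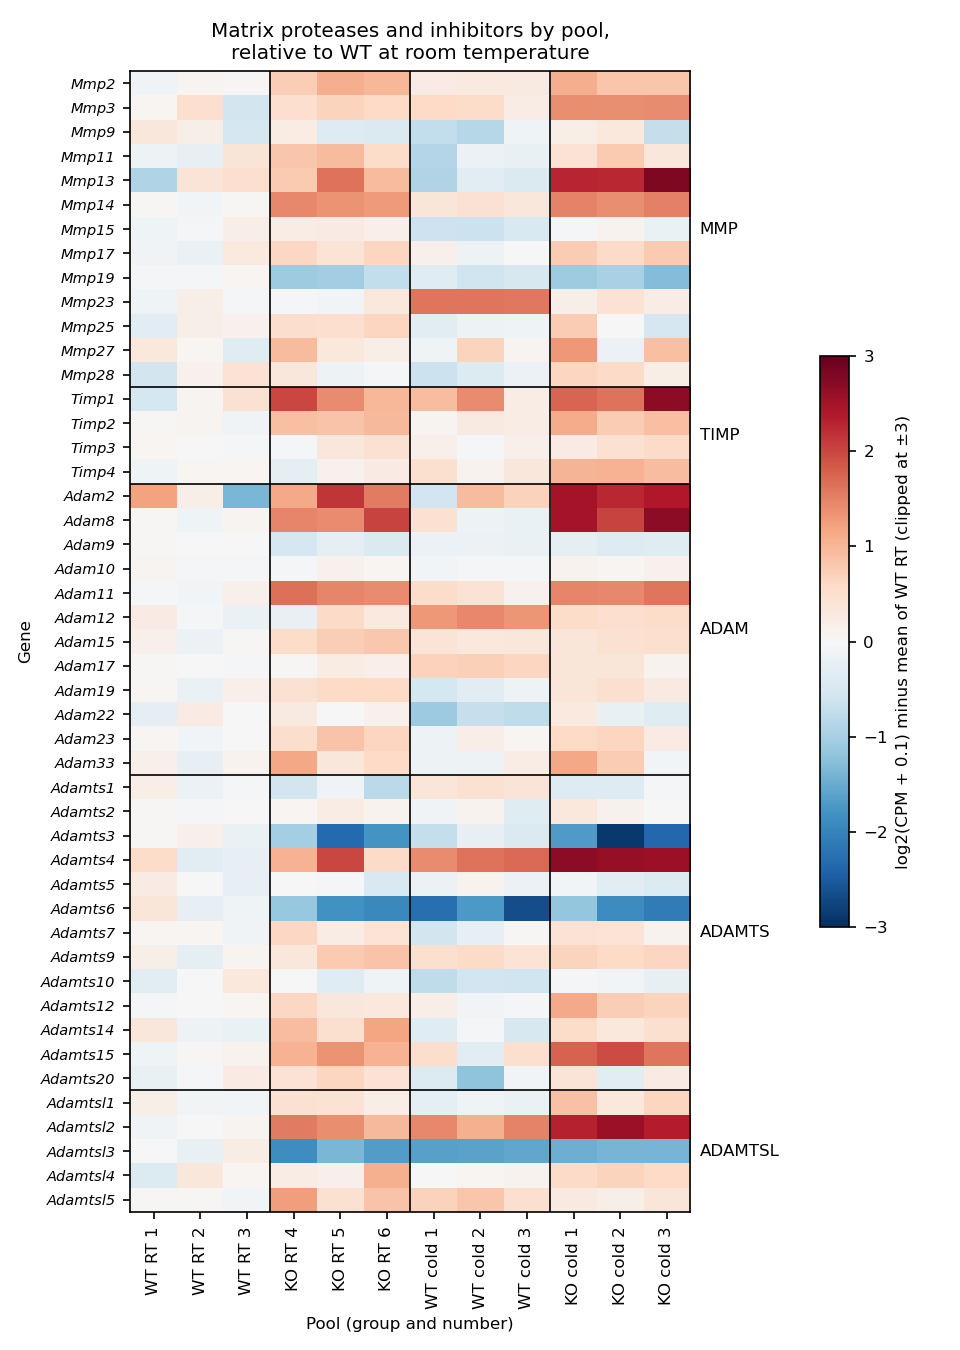
Levels of the 47 members in the 12 pools, as log2(CPM + 0.1) minus the mean of the WT room temperature pools, with colours clipped at ±3. Rows are genes by family and columns are pools by group, and colour in the cold KO columns is relative to room temperature WT and not to cold WT. Adam8, Adam11, Mmp14 and Mmp2 are red in all 6 KO columns, and Adam12 and Adam17 are reddest in the cold WT columns.

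The split depended on the scaling. With library totals alone, without TMM factors, the median of all genes moved to 0.22 at room temperature and 0.45 in the cold, that of the members to 0.73 and 1.09. The split then was 30 higher and 4 lower at room temperature, against 37 and 3 in the cold. Without both muscle-rich libraries, 14 members were higher and 5 lower at room temperature, and 27 and 6 in the cold.

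Most macrophage, endothelial and smooth muscle markers were also higher in KO. Of all genes 19.3% were higher and 21% lower at room temperature, and 25.9 and 27.8% in the cold. The 12 macrophage markers summed to 75.0 to 100.4 CPM (WT) against 248 to 348 CPM (KO) at room temperature and to 109 to 116 CPM against 291 to 402 CPM in the cold, with 11 of 12 higher in KO at either temperature and none at 0 in any pool. The 12 fibroblast and preadipocyte markers summed to 415 to 479.8 CPM (WT) against 594 to 671 CPM (KO) at room temperature and to 499 to 652 CPM against 626 to 817 CPM in the cold, with 6 and 8 of them higher in KO. Endothelial markers were higher in 8 and 7 of 10 cases at the 2 temperatures and Cldn5 was lower in the cold, at 532 to 642 CPM (WT) against 794 to 799.6 CPM (KO) at room temperature and 697 to 713 CPM against 766 to 914 CPM in the cold. Smooth muscle and pericyte markers were higher in 7 and 7 of 10 cases and lower in 2 and 1, at 646 to 696 CPM (WT) against 741 to 847 CPM (KO) at room temperature and 572 to 579.7 CPM against 697 to 807 CPM in the cold. Of the brown adipocyte markers 7 of 10 were lower at room temperature, against 6 in the cold. Of 9 tested lymphocyte markers 3 were higher in KO at room temperature and 5 in the cold, and of 7 tested neutrophil and mast cell markers 1 and 2, and the skeletal muscle list had 1 of 15 lower at either temperature. The part of these cell types in the results on the proteases was not tested, and in a tissue sample more cells of a type and more RNA per cell cannot be told apart.

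Of 13 MMPs tested, 4 were higher and 1 lower in KO without cold (30.8 and 7.69%), and 8 and 2 in the cold (61.5 and 15.4%). Of all genes tested, 19.3% were higher and 21% lower without cold and 25.9 and 27.8% in the cold, and the share of each family and list stands beside these. The gelatinase Mmp2 and its membrane-bound activator Mmp14 were higher in KO at both temperatures. Mmp14 (MT1-MMP, ENSMUSG00000000957, chromosome 14, 54431612 to 54445364, plus strand) stood at 6.71, 6.23 and 6.73 CPM (WT) against 18.1, 16.8 and 15.98 CPM (KO) at room temperature. For Mmp14 the cold pools had 8.43, 9.03 and 8.38 CPM (WT) against 18.5, 17.4 and 18.9 CPM (KO). All KO pools lay above all WT pools, 2.59-fold at room temperature (1.37 ± 0.09, FDR 3e-08) and 2.12-fold in the cold (1.08 ± 0.09, FDR 1.8e-07). Mmp2 (gelatinase A, ENSMUSG00000031740, chromosome 8, 92827291 to 92853420, plus strand) stood at 13.9, 15.8 and 15.3 CPM (WT) against 25.1, 32.2 and 30.0 CPM (KO) at room temperature. For Mmp2 the cold pools had 17.9, 18.5 and 18.2 CPM (WT) against 32.1, 26.8 and 26.6 CPM (KO). The genotypes again did not overlap, with log2 fold changes of 0.95 ± 0.10, FDR 3.5e-06 at room temperature and 0.65 ± 0.10, FDR 7.1e-05 in the cold. The other gelatinase, Mmp9, known from neutrophils and macrophages, stood at 1.07, 0.939 and 0.545 CPM (WT) against 0.985, 0.604 and 0.587 CPM (KO) at room temperature. For Mmp9 the cold pools had 0.450, 0.408 and 0.745 CPM (WT) against 0.961, 1.06 and 0.462 CPM (KO). Its groups overlapped, and neither difference passed (-0.20 ± 0.36, FDR 0.69 and 0.63 ± 0.38, FDR 0.18), although the second was called with library totals alone (1.07, FDR 0.023).

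Of the other membrane-anchored MMPs, Mmp17 (MT4-MMP) was higher in KO at room temperature (0.57 ± 0.20) and in the cold (0.73 ± 0.20), and Mmp15 (MT2-MMP) in the cold (0.54 ± 0.11) but not past the test at room temperature (0.21 ± 0.11). The room temperature call of Mmp17 ended with no filter beyond 1 count (0.54, FDR 0.096), with only the 6 compared libraries fitted (0.58, FDR 0.062), without both muscle-rich libraries (0.42, FDR 0.24) and without any 1 of WT room temperature replicates 1 and 2 and KO room temperature replicates 4 and 6 (0.46 to 0.53, FDR 0.071 to 0.14). Mmp25 (MT6-MMP) and Mmp27 had at most 17 and 19 counts in a library and did not pass at either temperature. Mmp11 (stromelysin-3), antisense to the abundant Chchd10 over part of its exons and therefore uncertain, stood at 1.61, 1.51 and 2.40 CPM (WT) against 3.28, 3.59 and 2.67 CPM (KO) at room temperature. For Mmp11 the cold pools had 0.937, 1.59 and 1.53 CPM (WT) against 2.45, 3.20 and 2.31 CPM (KO). It was higher in KO at room temperature (0.78 ± 0.23, FDR 0.013) and in the cold (0.98 ± 0.25, FDR 0.0031), and the first call ended without both muscle-rich libraries (0.76, FDR 0.056) and without WT room temperature replicate 2 (0.65, FDR 0.067). Mmp28 (epilysin), whose exons overlap 1700020L24Rik on the opposite strand and whose value is therefore uncertain, was higher in KO in the cold (0.88 ± 0.23), with 0.00 ± 0.23 at room temperature, and this difference between temperatures did not pass its own test (FDR 0.07).

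Mmp19, the MMP with the highest level per length in WT, went the other way. It stood at 45.5, 46.0 and 49.2 CPM (WT) against 22.2, 22.8 and 28.2 CPM (KO) at room temperature. For Mmp19 the cold pools had 36.2, 31.0 and 33.4 CPM (WT) against 22.3, 23.7 and 19.1 CPM (KO). The KO pools lay below the WT pools at both temperatures without overlap, 1.92-fold lower at room temperature (-0.94 ± 0.10, FDR 3.9e-06) and 1.55-fold in the cold (-0.63 ± 0.10, FDR 1e-04). The cold call ended with library totals alone (-0.19, FDR 0.24). Its exons overlap Tmem198b on the opposite strand, which makes the value uncertain, and Tmem198b stood at 1.91 to 3.80 CPM over the 12 pools.

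**Figure D2:**
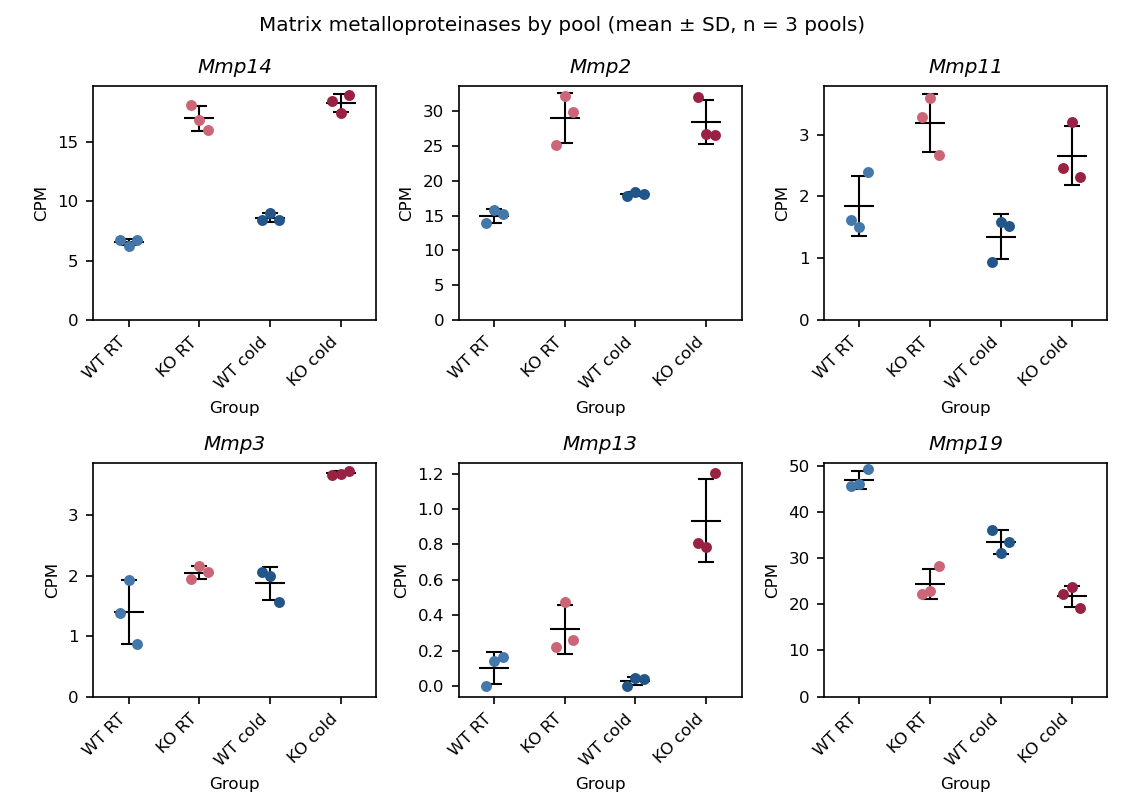
CPM of Mmp14, Mmp2, Mmp11, Mmp3, Mmp13 and Mmp19 in each of the 12 pools by group, with points for pools and bars for the mean ± SD of 3 pools. The KO pools lay above the WT pools for Mmp14 and Mmp2 and below them for Mmp19 at both temperatures, and Mmp3 and Mmp13 were highest in the cold KO pools.

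The collagenase Mmp13 and the stromelysin Mmp3, both in the MMP cluster of chromosome 9, were highest in KO in the cold. Mmp3 (ENSMUSG00000043613, chromosome 9, 7445822 to 7455975, plus strand) stood at 1.38, 1.93 and 0.871 CPM (WT) against 1.94, 2.16 and 2.05 CPM (KO) at room temperature. For Mmp3 the cold pools had 2.06, 1.997 and 1.56 CPM (WT) against 3.67, 3.69 and 3.73 CPM (KO). In the cold it was 1.97-fold higher in KO (0.98 ± 0.23, FDR 0.0017), with no overlap, and at room temperature, where the genotypes did not overlap either, it did not pass (0.56 ± 0.23, FDR 0.068), although it was called with library totals alone (0.77, FDR 0.021), without both muscle-rich libraries (0.89, FDR 0.024) and without WT room temperature replicate 2 (0.88, FDR 0.011). Mmp13 (ENSMUSG00000050578, chromosome 9, 7272514 to 7283331, plus strand), named after its values were seen because its mean is below 1 CPM, stood at 0, 0.142 and 0.163 CPM (WT) against 0.219, 0.477 and 0.261 CPM (KO) at room temperature. For Mmp13 the cold pools had 0, 0.0454 and 0.0372 CPM (WT) against 0.809, 0.786 and 1.20 CPM (KO). A count of 0, as in the first WT pool at each temperature, allows a level of up to 0.115 and 0.112 CPM, at 3 counts. The cold KO pools held 100 counts together against 2 in the cold WT pools, a ratio of 34.7 (95% exact counting interval 9.36 to 291, which covers counting error only). At room temperature the sums were 31 and 11 counts, a ratio of 2.80 (95% interval 1.37 to 6.17). Since Mmp13 met the count rule through KO pools alone, these values are a description with no test, although Mmp13 is 1 of the 27 members counted as higher in KO in the cold.

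The promoter windows of Mmp13 and Mmp3 are shown because both genes were highest in the cold KO pools. Windows run from 250 bases before to 50 after the annotated start on GRCm38.p6 from RefSeq. Mmp27 of the same cluster is shown too but is no contrast, since it passed no test on 3 to 19 counts per library. Its mean was also highest in cold KO, 0.309 CPM against 0.178 CPM in cold WT (0.83 ± 0.57, FDR 0.23). Since Mmp27 reached 10 counts in KO pools only, that direction is in part set by the count rule. Capitals mark matches on either strand to the AP-1 motif TGANTCA and to TATAAA, searched along with the cyclic AMP response element TGACGTCA.
Mmp13, chr9:7272264-7272563, plus strand: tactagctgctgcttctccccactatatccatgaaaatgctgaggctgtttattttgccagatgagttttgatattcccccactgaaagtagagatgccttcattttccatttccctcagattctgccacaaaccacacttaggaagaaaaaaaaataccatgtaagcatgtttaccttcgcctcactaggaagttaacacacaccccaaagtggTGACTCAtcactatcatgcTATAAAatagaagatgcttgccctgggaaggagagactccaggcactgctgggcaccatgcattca
Mmp3, chr9:7445572-7445871, plus strand: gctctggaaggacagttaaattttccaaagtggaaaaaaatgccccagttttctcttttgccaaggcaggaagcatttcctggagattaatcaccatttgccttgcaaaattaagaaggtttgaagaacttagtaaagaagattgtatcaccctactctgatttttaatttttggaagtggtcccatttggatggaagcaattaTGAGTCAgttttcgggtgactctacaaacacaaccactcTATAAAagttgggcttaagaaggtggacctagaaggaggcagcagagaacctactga
Mmp27, chr9:7571146-7571445, plus strand: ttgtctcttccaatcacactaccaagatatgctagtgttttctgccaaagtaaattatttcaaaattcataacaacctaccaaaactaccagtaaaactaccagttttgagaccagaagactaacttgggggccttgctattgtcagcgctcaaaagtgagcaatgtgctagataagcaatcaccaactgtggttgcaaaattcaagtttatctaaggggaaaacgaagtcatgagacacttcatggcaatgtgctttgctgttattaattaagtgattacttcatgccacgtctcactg
Mmp13 holds TGACTCA from 35 bases before its start and TATAAA from 16 bases before it, and Mmp3 holds TGAGTCA from 46 and TATAAA from 7 bases before. Mmp27 holds neither in this window. Of 32851 promoter windows of the same length in the table, 7.81% hold TGANTCA, 13.6% TATAAA and 1.79% TGACGTCA. RefSeq windows matched 31 of the 47 members, of which 3 hold TGANTCA (Mmp3, Mmp13 and Adam19), 4 TATAAA and 0 TGACGTCA. These are matches of letters and not measured sites.

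All 4 inhibitors were higher in KO in the cold (100%, all genes 25.9%), and Timp1 and Timp2 also at room temperature (50%, all genes 19.3%). The cold calls of Timp1 and Timp3 ended under some alternatives, given below. Timp2, which binds MMP14 and takes part in the activation of pro-MMP2 (ENSMUSG00000017466, chromosome 11, 118301069 to 118355740, minus strand), stood at 18.5, 19.2 and 16.7 CPM (WT) against 33.8, 33.1 and 35.5 CPM (KO) at room temperature. For Timp2 the cold pools had 19.1, 21.7 and 21.2 CPM (WT) against 39.0, 30.9 and 34.2 CPM (KO). Its KO pools lay above all WT pools at both temperatures, 1.88-fold (0.91 ± 0.10, FDR 2.4e-06) and 1.68-fold (0.75 ± 0.10, FDR 8.3e-06). Timp1, the secreted inhibitor known to be induced in inflamed fat (ENSMUSG00000001131, chromosome X, 20870166 to 20874735, plus strand), stood at 0.115, 0.228 and 0.327 CPM (WT) against 1.15, 0.731 and 0.522 CPM (KO) at room temperature. For Timp1 the cold pools had 0.487, 0.726 and 0.261 CPM (WT) against 0.935, 0.868 and 1.91 CPM (KO). It was 3.45-fold higher at room temperature (1.79 ± 0.47, FDR 0.0066) and 2.53-fold in the cold (1.34 ± 0.43, FDR 0.014), with 3 to 62 counts per library, and the cold call ended without WT cold replicate 3 (1.04, FDR 0.072) and without KO cold replicate 3 (0.89, FDR 0.099).

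Timp3 and Timp4 have introns of a synapsin gene around them, and their exons overlap exons of Syn3 and Syn2 on the opposite strand, so their values are uncertain. Syn3 had 0.298 to 1.498 CPM and Syn2 4.57 to 9.49 CPM over the 12 pools. Timp3, the inhibitor bound to the matrix (ENSMUSG00000020044, chromosome 10, 86300372 to 86349506, plus strand), stood at 227, 216 and 215 CPM (WT) against 214, 279 and 302 CPM (KO) at room temperature. For Timp3 the cold pools had 242, 210.5 and 244 CPM (WT) against 261, 301 and 325 CPM (KO). It was higher in KO in the cold (0.35 ± 0.12, FDR 0.018), with no overlap, but this call ended without any 1 of WT cold replicate 2 and KO cold replicates 2 and 3 (0.27 to 0.33, FDR 0.053 to 0.085). At room temperature it did not pass (0.27 ± 0.12, FDR 0.068), although it was called with library totals alone (0.49, FDR 0.0057), with the strict filter (0.31, FDR 0.043) and without KO room temperature replicate 4 (0.41, FDR 0.0048). Timp4, known for its high level in heart and fat (ENSMUSG00000030317, chromosome 6, 115241892 to 115252205, minus strand), stood at 35.3, 40.2 and 40.0 CPM (WT) against 31.9, 42.0 and 45.3 CPM (KO) at room temperature. For Timp4 the cold pools had 53.3, 41.4 and 48.9 CPM (WT) against 77.9, 79.7 and 72.6 CPM (KO). The cold KO pools stood above all 9 other pools, and Timp4 differed between genotypes in the cold (0.68 ± 0.12, FDR 1.5e-04) and not past the test at room temperature (0.04 ± 0.12, FDR 0.8).

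**Figure D3:**
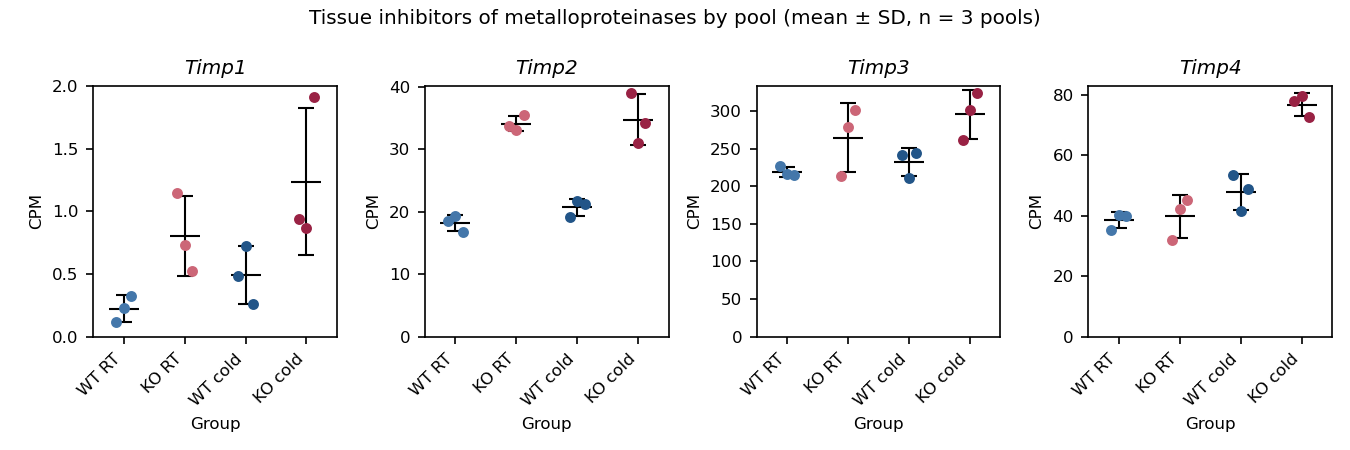
CPM of Timp1, Timp2, Timp3 and Timp4 in each pool by group, with points for pools and bars for the mean ± SD of 3 pools. Timp2 was higher in KO at both temperatures, and Timp4 was high only in the 3 cold KO pools, at 72.6 to 79.7 CPM against 31.9 to 53.3 CPM in the other 9.

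Of 12 ADAM genes, 6 were higher and 1 lower in KO without cold (50 and 8.33%), and 7 and 2 in the cold (58.3 and 16.7%). The general sheddase Adam10 stood at 31.1, 28.2 and 28.7 CPM (WT) against 28.2, 32.2 and 30.3 CPM (KO) at room temperature. For Adam10 the cold pools had 27.5, 27.9 and 28.1 CPM (WT) against 31.7, 30.7 and 32.1 CPM (KO). Its genotypes overlapped at room temperature (0.04 ± 0.08, FDR 0.69) and did not overlap in the cold, where the difference still did not pass (0.18 ± 0.08, FDR 0.062). It was called with library totals alone (0.26, FDR 0.039) at room temperature, and in the cold with library totals alone (0.62, FDR 4.7e-05), with the strict filter (0.24, FDR 0.015), with only the 6 compared libraries fitted (0.22, FDR 0.023), without WT room temperature replicate 1 (0.19, FDR 0.048) and without KO room temperature replicate 4 (0.18, FDR 0.049). Adam17, the sheddase of TNF and of EGF receptor ligands, stood at 46.2, 45.9 and 44.2 CPM (WT) against 46.2, 53.0 and 50.2 CPM (KO) at room temperature. For Adam17 the cold pools had 73.6, 74.4 and 71.0 CPM (WT) against 58.1, 58.3 and 48.9 CPM (KO). In KO it was lower in the cold (-0.41 ± 0.08, FDR 6.6e-04) and not different past the test at room temperature (0.13 ± 0.08, FDR 0.22). The cold difference turned positive with library totals alone (0.04, FDR 0.79), a scaling that moved all genes up by 0.45, and at room temperature a difference was called with library totals alone (0.35, FDR 0.02). Exons of Adam17 overlap Iah1 on the opposite strand, which had 17.02 to 26.7 CPM.

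Adam8, known from macrophages and other leukocytes, had the largest rise in KO among the 37 members with at least 1 CPM. It stood at 1.15, 1.02 and 1.20 CPM (WT) against 3.28, 3.18 and 4.86 CPM (KO) at room temperature. For Adam8 the cold pools had 1.57, 0.998 and 0.968 CPM (WT) against 6.78, 4.85 and 7.80 CPM (KO). Its exons overlap Gm16201 on the opposite strand, which had 0.572 to 2.31 CPM, so its value is uncertain. All KO pools lay above all WT pools, 3.35-fold at room temperature (1.74 ± 0.24, FDR 3.2e-05) and 5.44-fold in the cold (2.44 ± 0.24, FDR 6.4e-07). Adam11, Adam22 and Adam23 lack protease activity and are known from nerve. Adam11 stood at 4.03, 3.90 and 4.60 CPM (WT) against 13.4, 11.6 and 11.2 CPM (KO) at room temperature. For Adam11 the cold pools had 6.15, 5.67 and 4.54 CPM (WT) against 11.6, 11.4 and 12.8 CPM (KO). The KO level was 2.89-fold higher at room temperature (1.53 ± 0.13, FDR 3.4e-07) and 2.19-fold in the cold (1.13 ± 0.13, FDR 2.9e-06). Adam23 was higher at both temperatures (0.68 ± 0.13 and 0.46 ± 0.13). Adam22 stood at 1.69, 2.42 and 2.07 CPM (WT) against 2.46, 2.07 and 2.25 CPM (KO) at room temperature. For Adam22 the cold pools had 0.900, 1.23 and 1.15 CPM (WT) against 2.503, 1.74 and 1.57 CPM (KO). Its cold KO level was higher (0.83 ± 0.23, FDR 0.0069), a call that ended without KO cold replicate 1 (0.60, FDR 0.052). The 10 Schwann cell and nerve markers summed to 144 to 156 CPM (WT) against 136 to 153 CPM (KO) at room temperature and to 188 to 201 CPM against 177 to 186 CPM in the cold. Of the 8 of them tested, 5 were higher and 1 lower at room temperature, against 3 and 2 in the cold, while Th and Nefl were at 0 in most pools, and the part of nerve in these results was not tested. Adam2, a sperm surface gene, stood at 1.15, 0.512 and 0.109 CPM (WT) against 1.09, 2.29 and 1.4998 CPM (KO) at room temperature. For Adam2 the cold pools had 0.262, 0.953 and 0.782 CPM (WT) against 2.96, 2.49 and 2.77 CPM (KO). It was higher in KO in the cold (2.06 ± 0.58, FDR 0.012) and not past the test at room temperature (1.53 ± 0.59, FDR 0.06). The latter was called with library totals alone (1.78, FDR 0.019), with no filter beyond 1 count (1.51, FDR 2.6e-06), with the strict filter (1.57, FDR 0.042) and without any 1 of WT room temperature replicate 1, KO room temperature replicate 4 and WT cold replicate 1 (1.53 to 2.38, FDR 0.0052 to 0.049).

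Among the remaining ADAMs, Adam19 was higher at both temperatures (0.55 ± 0.14 and 0.71 ± 0.14), with the first call lost without both muscle-rich libraries (0.43, FDR 0.078). Adam15, known from endothelium, stood at 50.3, 40.4 and 46.6 CPM (WT) against 66.6, 76.7 and 79.6 CPM (KO) at room temperature. For Adam15 the cold pools had 59.2, 56.8 and 57.5 CPM (WT) against 59.0, 62.6 and 63.9 CPM (KO). Its KO level was higher at room temperature (0.70 ± 0.09, FDR 1.8e-05). In the cold the genotypes overlapped and the difference did not pass (0.10 ± 0.09, FDR 0.38), although it was called with library totals alone (0.53, FDR 2.1e-04). Adam33 passed at both temperatures with FDR 0.043 and 0.046, and these calls ended at room temperature without both muscle-rich libraries (0.73, FDR 0.17) and without any 1 of WT room temperature replicates 1, 2 and 3, KO room temperature replicates 4 and 6, WT cold replicates 1 and 2 and KO cold replicate 2 (0.50 to 0.86, FDR 0.055 to 0.22) and in the cold without both muscle-rich libraries (0.75, FDR 0.059) and without any 1 of WT room temperature replicate 3, KO room temperature replicate 6, WT cold replicates 1 and 2 and KO cold replicates 1 and 2 (0.43 to 0.76, FDR 0.051 to 0.27). Adam9 was lower at room temperature (-0.40 ± 0.08, FDR 5.1e-04), a call that ended with library totals alone (-0.18, FDR 0.16). Adam12, linked to adipocyte formation (ENSMUSG00000054555, chromosome 7, 133883199 to 134232146, minus strand), stood at 183, 149 and 134 CPM (WT) against 132, 229 and 189.8 CPM (KO) at room temperature. For Adam12 the cold pools had 377, 418 and 384 CPM (WT) against 225, 219 and 226 CPM (KO). Its cold KO pools lay below all cold WT pools (-0.82 ± 0.16, FDR 8.2e-04), while at room temperature the genotypes overlapped (0.24 ± 0.16, FDR 0.25). The latter was called higher with library totals alone (0.47, FDR 0.017) and without KO room temperature replicate 4 (0.43, FDR 0.0086).

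**Figure D4:**
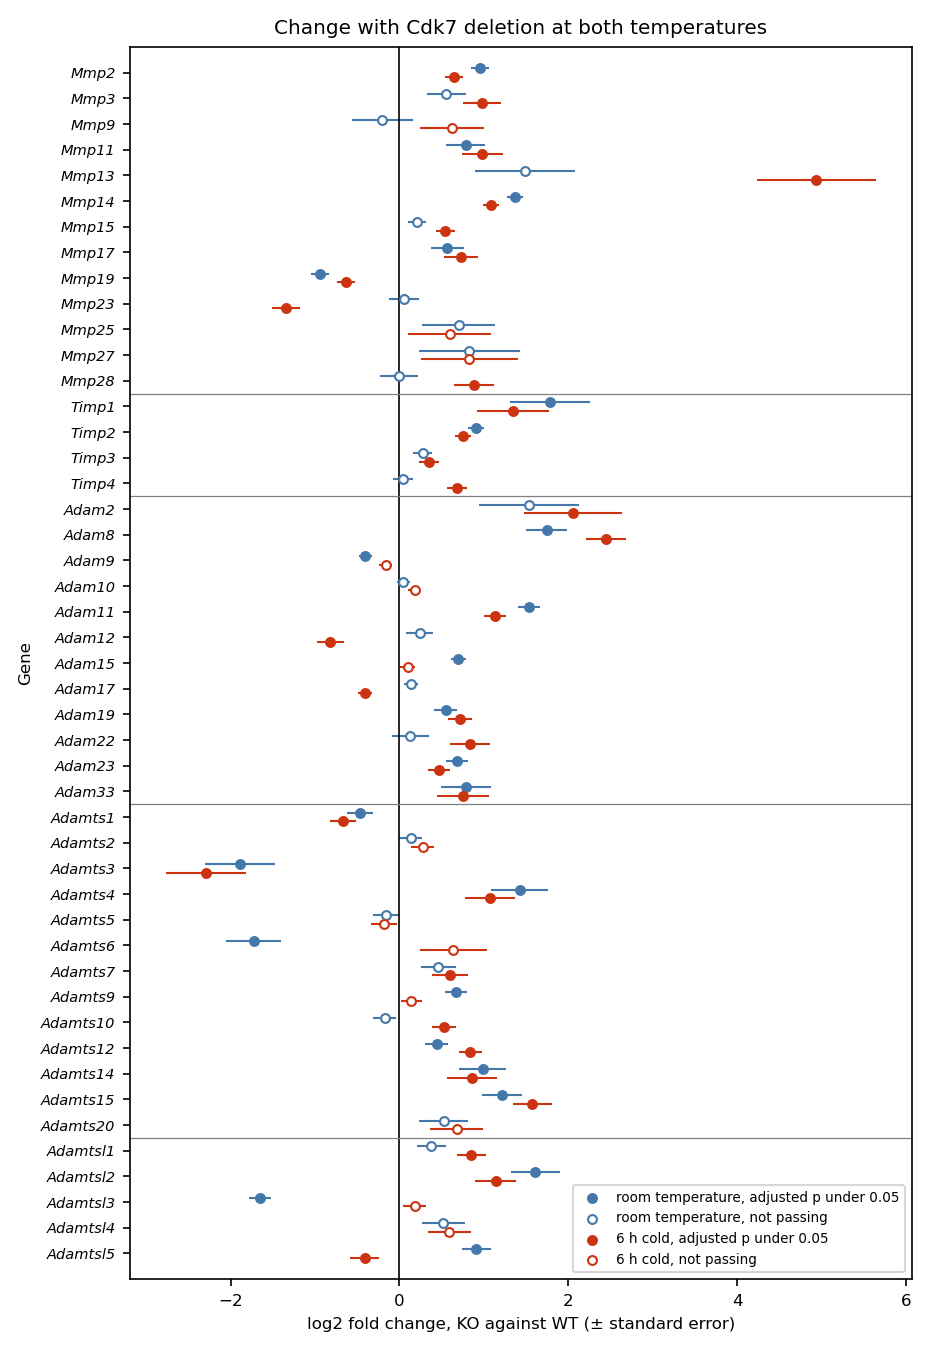
Log2 fold change of KO against WT for the 47 members at room temperature (blue) and 6 h into cold (red), with bars for the standard error and filled points for an FDR (adjusted p) under 0.05. Most filled points lie right of 0, and Mmp19, Adamts1 and Adamts3 lie left of it at both temperatures.

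Of 13 ADAMTS proteases tested, 5 were higher and 3 lower in KO without cold (38.5 and 23.1%), and 6 and 2 in the cold (46.2 and 15.4%). The share lower lay near that of all genes without cold and below it in the cold. Of the proteoglycan-cutting members, Adamts4 (aggrecanase-1) stood at 1.11, 0.569 and 0.599 CPM (WT) against 1.61, 3.24 and 1.14 CPM (KO) at room temperature. For Adamts4 the cold pools had 2.10, 2.45 and 2.57 CPM (WT) against 5.21, 4.96 and 4.81 CPM (KO). It was higher in KO in both conditions, at room temperature (1.42 ± 0.34, FDR 0.0038) and in the cold (1.07 ± 0.30, FDR 0.0068). Its value is uncertain, since its counts can hold reads of other transcripts. Adamts15 stood at 0.843, 0.967 and 1.01 CPM (WT) against 2.02, 2.54 and 2.02 CPM (KO) at room temperature. For Adamts15 the cold pools had 1.39, 0.726 and 1.34 CPM (WT) against 3.41, 3.93 and 3.05 CPM (KO). Its KO pools lay above its WT pools without overlap, 2.32-fold (1.21 ± 0.23, FDR 6.2e-04) and 2.98-fold (1.57 ± 0.23, FDR 2.8e-05). Adamts5 (aggrecanase-2) stood at 8.93, 7.57 and 6.399 CPM (WT) against 7.55, 7.40 and 5.51 CPM (KO) at room temperature. For Adamts5 the cold pools had 6.63, 8.12 and 6.67 CPM (WT) against 7.16, 5.99 and 5.67 CPM (KO). Its groups overlapped and did not pass (-0.16 ± 0.16, FDR 0.45 and -0.18 ± 0.16, FDR 0.35). Its neighbour on chromosome 16, Adamts1, which cuts versican and other proteoglycans, stood at 29.4, 22.7 and 25.2 CPM (WT) against 17.4, 23.7 and 14.6 CPM (KO) at room temperature. For Adamts1 the cold pools had 32.8, 35.4 and 33.8 CPM (WT) against 19.5, 19.7 and 24.9 CPM (KO). It was lower in KO in the cold (-0.67 ± 0.15, FDR 0.0024) and at room temperature (-0.47 ± 0.15, FDR 0.026). The cold call ended with library totals alone (-0.24, FDR 0.16). The room temperature call ended with library totals alone (-0.24, FDR 0.19), with only the 6 compared libraries fitted (-0.46, FDR 0.071), without both muscle-rich libraries (-0.41, FDR 0.061) and without any 1 of WT room temperature replicates 1 and 3 and KO room temperature replicates 4 and 6 (-0.49 to -0.33, FDR 0.052 to 0.096).

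The procollagen N-proteinases differed among themselves. Adamts2, which trims procollagens I and III, had 6.93 ± 0.195 CPM (WT) against 7.59 ± 0.517 CPM (KO) at room temperature and did not pass at either temperature (0.13 ± 0.13 and 0.28 ± 0.13). Adamts3, which acts on procollagen II and on the lymphatic growth factor VEGF-C, stood at 1.07, 1.17 and 0.899 CPM (WT) against 0.465, 0.127 and 0.228 CPM (KO) at room temperature. For Adamts3 the cold pools had 0.600, 0.862 and 0.745 CPM (WT) against 0.253, 0.0542 and 0.123 CPM (KO). It was lower in KO at room temperature (-1.89 ± 0.41, FDR 0.0017) and in the cold (-2.29 ± 0.47, FDR 6.9e-04), with 2 to 41 counts per library, and its value was -2.53 without KO room temperature replicate 4 and -3.02 without KO cold replicate 1. Adamts14, the third of them, was higher at room temperature (0.99 ± 0.28) and in the cold (0.86 ± 0.30). Those calls of Adamts14 ended at room temperature without both muscle-rich libraries (0.73, FDR 0.15) and without KO room temperature replicate 6 (0.82, FDR 0.052) and in the cold without any 1 of WT cold replicates 1 and 3 and KO cold replicate 1 (0.76 to 0.81, FDR 0.066 to 0.078). Adamts12, a protease of cartilage oligomeric matrix protein, stood at 7.05, 7.45 and 7.62 CPM (WT) against 11.4, 9.37 and 9.19 CPM (KO) at room temperature. For Adamts12 the cold pools had 8.47, 6.99 and 7.04 CPM (WT) against 16.3, 12.3 and 11.74 CPM (KO). The KO level was higher in the cold (0.84 ± 0.14, FDR 9e-05) and at room temperature (0.44 ± 0.14, FDR 0.017). The latter call ended without both muscle-rich libraries (0.50, FDR 0.053) and without KO room temperature replicate 4 (0.33, FDR 0.086). Its relative Adamts7 passed in the cold (0.60 ± 0.22), a call that ended without any 1 of WT cold replicates 1 and 2 and KO cold replicates 1 and 2 (0.45 to 0.60, FDR 0.062 to 0.13). Exons of Adamts7 overlap Tbc1d2b on the opposite strand, which had 4.95 to 16.3 CPM and a fitted value of 1.14 for KO against WT in the cold, so the value of Adamts7 is uncertain. Adamts20 did not pass (0.52 ± 0.29 and 0.68 ± 0.32). Among the 5 ADAMTS-like genes Adamtsl2, a partner of microfibrils, was higher at both temperatures (1.61 ± 0.29, FDR 4.3e-04 and 1.14 ± 0.24, FDR 9.3e-04) and Adamtsl1 in the cold (0.85 ± 0.18, FDR 6.8e-04), while Adamtsl4 did not pass (0.52 ± 0.25 and 0.59 ± 0.25).

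The comparison of cold with room temperature asks how these genes respond to 6 h of cold in each genotype. In WT 13 of 47 members were higher in the cold and 6 lower, a split that turned to 6 higher and 9 lower with library totals alone, which moved the median of all genes to -0.23. The shares, 27.7 and 12.8%, were near or below the 23% and 23.2% of all genes. In KO 8 were higher and 1 lower (17.02 and 2.13%), beside 7.29% and 7.56% of all genes. Mmp13, which met the count rule through KO pools alone, is 1 of these 8 and of the 11 below. Medians of the members were 0.01 in WT and 0.06 in KO, and of all genes -0.03 and -0.02. The count of 9 in KO fell to 5 without KO room temperature replicate 4 and to 4 without KO cold replicate 1 or 2. The cold response itself differed between genotypes for 11 of 47 members, beside 23.5% of all genes. Of these 11, 5 higher and 6 lower in KO relative to WT (10.6 and 12.8%), beside 10.6% and 12.9% of all genes. With library totals alone that split was 7 and 3, and the median of all genes for this difference 0.24. Markers of other cell types called with cold are given beside the same shares of all genes, 23 and 23.2% in WT and 7.29 and 7.56% in KO. In KO 5 of 12 macrophage markers were higher in the cold (41.7%, C1qa, C1qb, C1qc, Mrc1 and Cd163) and in WT 3 (25%, C1qa, C1qb and C1qc). In WT 3 smooth muscle and pericyte markers of 10 were higher and 4 lower (30 and 40%, the lower ones Pdgfrb, Rgs5, Cspg4 and Notch3). Of 10 endothelial markers 3 were higher in WT and 2 lower (30 and 20%), and of 12 fibroblast markers 4 and 2 (33.3 and 16.7%). In KO the endothelial list had 1 higher and 1 lower (10% each), the smooth muscle list 1 lower (10%) and the fibroblast list 1 higher (8.33%). Their part in the cold responses of the proteases was not tested.

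Mmp23, Adam12 and Adam17 rose with cold in WT, and the rise was smaller in KO. Mmp23, a membrane-tethered MMP with a toxin-like domain (ENSMUSG00000029061, chromosome 4, 155650655 to 155653384, minus strand), stood at 1.69, 2.13 and 1.80 CPM (WT) against 1.78, 1.75 and 2.35 CPM (KO) at room temperature. For Mmp23 the cold pools had 5.85, 5.85 and 5.74 CPM (WT) against 2.12, 2.55 and 2.19 CPM (KO). The 3 cold WT pools stood above the other 9, a 3.09-fold rise (1.63 ± 0.17, FDR 1.4e-06), and the value in KO was 0.23 ± 0.18, FDR 0.43. The difference between both responses was -1.40 ± 0.25, FDR 9e-04, and KO was 2.54-fold lower than WT in the cold. Adam12 rose 2.53-fold in WT (1.34 ± 0.16, FDR 1.8e-05) and did not pass in KO (0.28 ± 0.16, FDR 0.26), with a difference of -1.06 ± 0.23, FDR 0.005. In KO Adam12 was called with no filter beyond 1 count (0.30, FDR 0.041) and without KO room temperature replicate 5 (0.47, FDR 0.036). Adam17 rose 1.61-fold in WT (0.68 ± 0.08, FDR 5.5e-06), had 0.15 ± 0.08, FDR 0.26 in KO and differed by -0.54 ± 0.12, FDR 0.0038, which ended with library totals alone (-0.31, FDR 0.17). Adam15 rose in WT (0.34 ± 0.09, FDR 0.0056), had -0.26 ± 0.09, FDR 0.056 in KO and differed by -0.60 ± 0.13, FDR 0.003. The rise of Adam15 in WT ended with library totals alone (0.15, FDR 0.22), the difference with library totals alone (-0.39, FDR 0.056), and a fall in KO was called without WT room temperature replicate 2 (-0.26, FDR 0.042) and without KO room temperature replicate 4 (-0.34, FDR 0.026).

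Adamtsl3 and Adamts6 were high only in WT at room temperature. Adamtsl3 (punctin-2, ENSMUSG00000070469, chromosome 7, 82335694 to 82614450, plus strand) stood at 20.7, 18.01 and 24.5 CPM (WT) against 5.69, 8.01 and 6.46 CPM (KO) at room temperature. For Adamtsl3 the cold pools had 6.67, 6.76 and 7.08 CPM (WT) against 7.56, 7.89 and 7.83 CPM (KO). It fell with cold in WT 3.08-fold (-1.62 ± 0.13, FDR 9.8e-08), was lower in KO at room temperature (-1.65 ± 0.13, FDR 1.6e-07) and had 0.21 ± 0.13, FDR 0.32 with cold in KO. Those values from WT and from room temperature share the WT room temperature pools, and the difference between both cold responses was 1.83 ± 0.19, FDR 1.2e-05. In the cold all KO pools of Adamtsl3 lay above all WT pools, but the genotype difference did not pass (0.18 ± 0.14, FDR 0.27). It was called with library totals alone (0.62, FDR 0.0025). Adamts6, related to the fibrillin-binding Adamts10, stood at 2.80, 1.82 and 1.99 CPM (WT) against 0.930, 0.540 and 0.489 CPM (KO) at room temperature. For Adamts6 the cold pools had 0.375, 0.590 and 0.261 CPM (WT) against 0.910, 0.515 and 0.432 CPM (KO). It was chosen after its values were seen. Adamts6 was lower in KO at room temperature (-1.72 ± 0.33, FDR 5.7e-04), and cold changed it in WT (-2.44 ± 0.36, FDR 3.9e-05) and not past the test in KO (-0.08 ± 0.35, FDR 0.91), with a difference of 2.36 ± 0.51, FDR 0.0035. Adamts10 stood at 13.6, 16.7 and 21.2 CPM (WT) against 17.1, 13.2 and 15.4 CPM (KO) at room temperature. For Adamts10 the cold pools had 9.86, 11.3 and 11.1 CPM (WT) against 16.2, 15.9 and 14.3 CPM (KO). Its KO level was higher in the cold (0.53 ± 0.14, FDR 0.0043), where the genotypes did not overlap. It fell with cold in WT (-0.68 ± 0.14, FDR 7.3e-04), had 0.02 ± 0.14, FDR 0.93 in KO and differed by 0.70 ± 0.19, FDR 0.015, which ended without both muscle-rich libraries (0.73, FDR 0.053).

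Adamtsl5 moved in opposite directions with cold. It stood at 4.64, 4.61 and 4.27 CPM (WT) against 10.9, 6.26 and 8.18 CPM (KO) at room temperature. For Adamtsl5 the cold pools had 7.31, 8.12 and 6.33 CPM (WT) against 5.46, 5.07 and 5.79 CPM (KO). Adamtsl5 rose in WT (0.69 ± 0.17, FDR 0.0035) and fell in KO (-0.64 ± 0.17, FDR 0.016), with a difference of -1.32 ± 0.24, FDR 0.0011. The fall in KO ended without any 1 of KO room temperature replicate 4 and KO cold replicates 1 and 2 (-0.64 to -0.41, FDR 0.057 to 0.1). Between genotypes it was higher in KO at room temperature (0.91 ± 0.17, FDR 4.9e-04) and lower in the cold (-0.41 ± 0.17, FDR 0.048), and the second call ended, with a positive value under the first of these settings, with library totals alone (0.03, FDR 0.91), with the strict filter (-0.35, FDR 0.089), without both muscle-rich libraries (-0.41, FDR 0.067) and without any 1 of WT room temperature replicates 1, 2 and 3, KO room temperature replicate 6, WT cold replicates 1 and 2 and KO cold replicates 1, 2 and 3 (-0.46 to -0.32, FDR 0.053 to 0.18). Adamts9, a protease of versican whose exons overlap 2 antisense genes and whose value is uncertain, had 45.1 ± 7.12 CPM (WT) against 71.6 ± 13.0 CPM (KO) at room temperature. The antisense genes A730049H05Rik and Gm15737 had at most 2.59 and 0.0767 CPM in a pool. The cold means of Adamts9 were 63.1 ± 3.77 CPM (WT) against 69.6 ± 1.87 CPM (KO). It was higher in KO at room temperature (0.67 ± 0.13, FDR 6.7e-04), rose in WT (0.49 ± 0.13, FDR 0.005) and had -0.04 ± 0.12, FDR 0.87 in KO, with a difference of -0.53 ± 0.18, FDR 0.042. The rise in WT ended with library totals alone (0.30, FDR 0.06), and the difference with library totals alone (-0.31, FDR 0.22), without both muscle-rich libraries (-0.30, FDR 0.23) and without any 1 of WT room temperature replicates 2 and 3, KO room temperature replicates 5 and 6, WT cold replicates 1, 2 and 3 and KO cold replicates 1, 2 and 3 (-0.56 to -0.40, FDR 0.055 to 0.11).

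**Figure D5:**
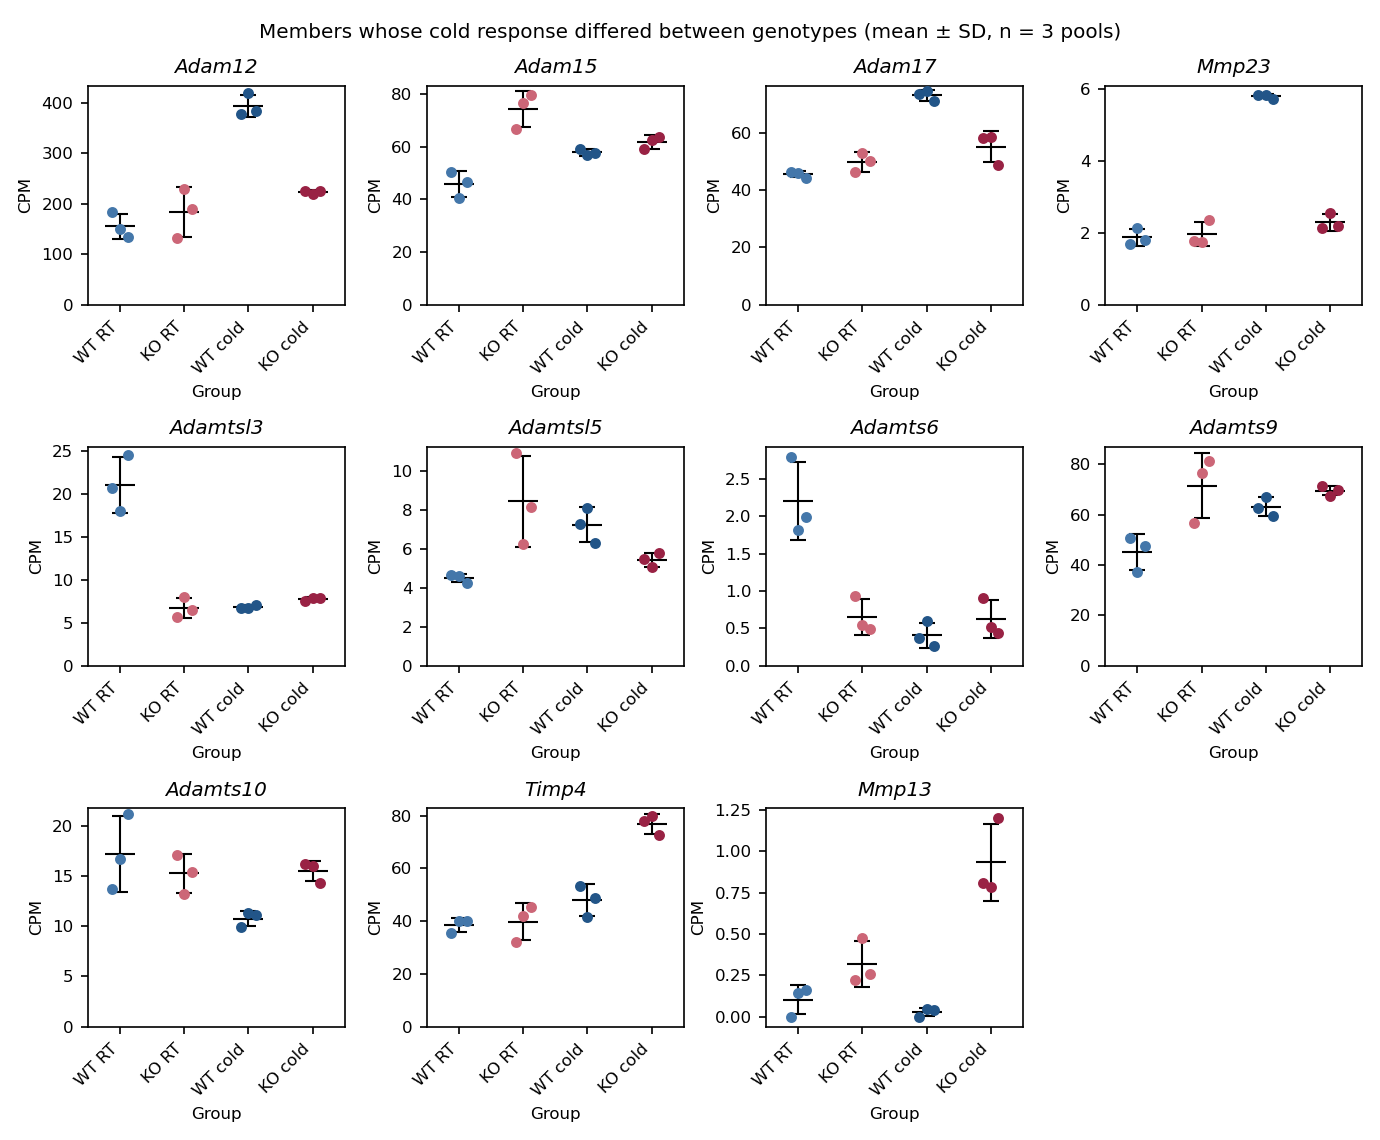
CPM in each pool by group for the 11 members whose cold response passed the test of the difference between genotypes. Points are pools and bars the mean ± SD of 3 pools. Mmp13, which met the count rule through KO pools alone, is shown as a description. Adam12, Adam17 and Mmp23 were highest in the cold WT pools, Adamtsl3 and Adamts6 in the room temperature WT pools, and Timp4 and Mmp13 in the cold KO pools.

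Timp4 and Mmp3 rose with cold in KO, where Mmp13 also had its highest counts. Timp4 rose 1.93-fold in KO (0.95 ± 0.12, FDR 5.9e-05) and less in WT (0.31 ± 0.12, FDR 0.037), with a difference of 0.64 ± 0.17, FDR 0.011. The rise in WT ended with library totals alone (0.12, FDR 0.55) and without any 1 of WT room temperature replicates 1, 2 and 3 and WT cold replicates 1 and 3 (0.23 to 0.35, FDR 0.055 to 0.17). Mmp13 went from 31 to 100 counts over the KO pools, a ratio of 2.92 (95% counting interval 1.94 to 4.53), and from 11 to 2 counts in WT, a ratio of 0.236 (0.0254 to 1.08), again a description with no test. Mmp3 rose in KO (0.85 ± 0.22, FDR 0.016), which ended without KO room temperature replicate 4 (0.81, FDR 0.054) and without KO cold replicate 2 (0.85, FDR 0.0501), and had 0.42 ± 0.24, FDR 0.16 in WT, called without both muscle-rich libraries (0.76, FDR 0.027) and without WT room temperature replicate 2 (0.75, FDR 0.022). The difference between its responses did not pass (0.42 ± 0.33, FDR 0.38).

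Other members rose with cold in KO or in both genotypes. Adamts4 rose in WT (1.67 ± 0.34, FDR 9.1e-04) and in KO (1.32 ± 0.30, FDR 0.0077), and Adamtsl2 did likewise (1.64 ± 0.30 and 1.17 ± 0.24), with no difference past the test for either (-0.35 ± 0.45 and -0.47 ± 0.38). Adam8, Adamts15 and Adamts12 passed in KO, with 0.78 ± 0.21, FDR 0.021, 0.66 ± 0.21, FDR 0.044 and 0.43 ± 0.13, FDR 0.041. The call of Adam8 ended without any 1 of KO room temperature replicates 4 and 5 and KO cold replicates 1 and 3 (0.63 to 0.75, FDR 0.064 to 0.084). That of Adamts15 ended with library totals alone (0.69, FDR 0.075), without both muscle-rich libraries (0.60, FDR 0.15) and without any 1 of WT room temperature replicate 2, KO room temperature replicates 4 and 6 and KO cold replicates 1 and 2 (0.56 to 0.67, FDR 0.055 to 0.17). That of Adamts12 ended with library totals alone (0.46, FDR 0.085), with only the 6 compared libraries fitted (0.44, FDR 0.053), without both muscle-rich libraries (0.37, FDR 0.18) and without any 1 of KO room temperature replicates 5 and 6 and KO cold replicates 1 and 2 (0.26 to 0.49, FDR 0.06 to 0.25). In WT Mmp14 (0.39 ± 0.10, FDR 0.0032), Mmp2 (0.28 ± 0.11, FDR 0.041), Adamts1 (0.40 ± 0.15, FDR 0.044) and Adam11 (0.38 ± 0.14, FDR 0.029) rose by less than 1.5-fold, and the call of Mmp14 in WT ended with library totals alone (0.20, FDR 0.17). The call of Mmp2 ended with library totals alone (0.07, FDR 0.69), with no filter beyond 1 count (0.25, FDR 0.091), with the strict filter (0.25, FDR 0.0502), without both muscle-rich libraries (0.31, FDR 0.061) and without any 1 of WT room temperature replicates 1, 2 and 3, KO room temperature replicate 6 and WT cold replicates 1, 2 and 3 (0.22 to 0.31, FDR 0.0502 to 0.12). Adamts1 lost its call with library totals alone (0.22, FDR 0.22), without both muscle-rich libraries (0.32, FDR 0.08) and without any 1 of WT room temperature replicates 2 and 3, KO room temperature replicate 4, WT cold replicates 1, 2 and 3 and KO cold replicates 1 and 2 (0.32 to 0.43, FDR 0.053 to 0.16), and Adam11 with library totals alone (0.19, FDR 0.34), with no filter beyond 1 count (0.36, FDR 0.07), with only the 6 compared libraries fitted (0.38, FDR 0.067), without both muscle-rich libraries (0.33, FDR 0.12) and without any 1 of WT room temperature replicates 1 and 2 and WT cold replicates 1 and 2 (0.28 to 0.36, FDR 0.064 to 0.14). Cold lowered Mmp19 (-0.48 ± 0.10), Mmp15 (-0.59 ± 0.11) and Adam22 (-0.92 ± 0.24) in WT, where the values in KO were -0.17 ± 0.10, -0.26 ± 0.11 and -0.22 ± 0.22 and the differences between genotypes did not pass. That of Mmp19 was called without KO room temperature replicate 6 (0.43, FDR 0.042). Adam10, Adamts5, Mmp9, Timp1, Timp2 and Timp3 passed in neither genotype, with values between -0.64 (Mmp9 in WT) and 1.05 (Timp1 in WT), and Adam10 was called lower in WT with library totals alone (-0.27, FDR 0.035).

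Genes that act with these proteases were read from 5 lists. Of the 19 tested activators and regulators of matrix proteases, 5 were higher and 2 lower with the deletion at room temperature (26.3 and 10.5%), against 4 and 7 in the cold (21.1 and 36.8%, all genes 19.3 and 21%, then 25.9 and 27.8%, medians 0.17 and -0.09). Pcsk6, a proprotein convertase that can activate proforms, stood at 50.3, 47.6 and 51.2 CPM (WT) against 16.01, 17.6 and 18.6 CPM (KO) at room temperature. For Pcsk6 the cold pools had 48.2, 49.4 and 39.0 CPM (WT) against 14.1, 13.1 and 13.1 CPM (KO). It was 2.85-fold lower in KO at room temperature (-1.51 ± 0.10, FDR 1.3e-08) and 3.39-fold in the cold (-1.76 ± 0.10, FDR 2.5e-09). Cd44, the hyaluronan receptor that docks MMPs on the cell surface, was higher (1.68 ± 0.15, FDR 4.2e-07 and 1.94 ± 0.15, FDR 5.7e-08). Lrp1, the scavenger receptor that clears proteases with their inhibitors, was lower at room temperature (-0.65 ± 0.10, FDR 1.2e-04), fell with cold in WT (-0.84 ± 0.10, FDR 6.4e-06) and differed in its cold response (0.88 ± 0.15, FDR 5.9e-04). Of 11 partners of ADAM10 and ADAM17, 7 were higher in KO in the cold (63.6%, all genes 25.9%), among them the tetraspanin Tspan14, a carrier of ADAM10 (0.54 ± 0.12, FDR 0.0013). At room temperature 1 was higher and 1 lower, 9.09% each and below the 19.3 and 21% of all genes. In WT 6 of these 11 fell with cold (54.5%, all genes 23.2%), with Tspan14 at -1.01 ± 0.12, FDR 4.7e-06.

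The ADAMTS substrates that passed were higher in KO. Of 17 proteoglycans and other ADAMTS substrates 9 were higher at room temperature and 12 in the cold (52.9 and 70.6%, all genes 19.3 and 25.9%, medians 0.43 and 0.55). These included the proteoglycan Bgn (0.82 ± 0.08, FDR 9.2e-07 and 0.66 ± 0.08, FDR 3.5e-06) and fibronectin, Fn1 (0.70 ± 0.11, FDR 1.3e-04 and 0.55 ± 0.11, FDR 6.6e-04). Of 27 substrates shed by ADAM10 or ADAM17, 12 were higher and 7 lower at room temperature (44.4 and 25.9%), against 14 and 6 in the cold (51.9 and 22.2%), where the shares lower lay near the 21 and 27.8% of all genes. The adhesion molecule Cdh2 was lower at both temperatures (-1.92 ± 0.13, FDR 1.8e-08 and -1.09 ± 0.13, FDR 6.2e-06), as was the growth factor receptor Met (-1.59 ± 0.12, FDR 8e-08 and -1.66 ± 0.12, FDR 3.1e-08). The receptors Axl (0.75 ± 0.10, FDR 2.5e-05 and 0.94 ± 0.10, FDR 1.4e-06) and Mertk (0.56 ± 0.10, FDR 3.8e-04 and 0.92 ± 0.10, FDR 1.9e-06) were higher at both. The TNF receptor Tnfrsf1a rose with cold in WT (1.42 ± 0.10, FDR 1.9e-08) and less in KO (0.68 ± 0.10, FDR 2.5e-04, difference -0.75 ± 0.14, FDR 0.0013). Of 16 astacin, cysteine and other matrix proteases and their partners, 9 were higher and 2 lower at room temperature (56.25 and 12.5%, all genes 19.3 and 21%). In the cold these were 11 and 1 (68.75 and 6.25%, all genes 25.9 and 27.8%). Cathepsin K, Ctsk, was higher (1.19 ± 0.16, FDR 3.4e-05 and 1.20 ± 0.16, FDR 1.5e-05), as was the procollagen C-proteinase enhancer Pcolce (0.65 ± 0.11, FDR 3.1e-04 and 0.71 ± 0.12, FDR 8e-05), and the cathepsin inhibitor cystatin C, Cst3, was lower (-0.50 ± 0.09, FDR 3.1e-04 and -0.52 ± 0.09, FDR 1.3e-04). Of these lists Csf1r is also a marker of macrophages, Notch3 of smooth muscle and Cdh5 of endothelium in the marker lists, and Dcn, Lum, Fap and Dpp4 of fibroblasts.

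Position along the chromosomes is given for the clustered members. In the MMP cluster of chromosome 9, between 7272514 and 7699585, Mmp13, Mmp3 and Mmp27 met the count rule and Mmp1b, Mmp10, Mmp8, Mmp20 and Mmp7 did not, with at most 4 counts in a library. The ADAM genes of chromosome 8 next to Adam9, namely Adam18, Adam3, Adam5 and Adam32, stayed below the rule with at most 13 counts, while Adam9 had up to 2823. Adamts1 and Adamts5 on chromosome 16 lie side by side and only Adamts1 passed a test, and Adamts8, the neighbour of Adamts15 on chromosome 9, had at most 7 counts.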

How the data were processed

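RNA of 12 pools of interscapular brown fat was sequenced, 3 for each of 4 groups. The authors deposited whole-number read counts per Ensembl gene, 1 file per pool, and STAR, HTSeq and GRCm38 are named per the submitters' processing notes, with versions not given in the sources used here. The deposited count files are marked as counted in the reverse strand mode, and the library kit is not given in the sources used here. Lines that name no gene were kept out of library sizes and tests: 1.64 to 2.26% of reads fell in no feature, 1.07 to 1.37% were ambiguous, 1.12 to 1.86% not aligned and 26.6 to 30.2% not aligned to a unique place. All counts were compared within groups before averaging, and no pair of pools agreed within sampling noise.

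Symbols and exons came from GENCODE's GRCm38 annotation. Counts were fitted with edgeR 4.0.16 in R 4.3.3 (quasi-likelihood, TMM factors of 0.798 to 1.18, a filter on low counts by group that kept 15208 genes, 4 group means over all 12 libraries, common biological coefficient of variation 13.6%). Comparisons were KO with WT at each temperature, cold with room temperature in each genotype, and the difference between both cold responses, with Benjamini-Hochberg adjustment over all genes and a threshold of 0.05. All 47 members were tested. CPM per kb divides CPM by the length of the union of a gene's exons. On simulated counts of 14841 genes for KO against WT at room temperature, the test recovered 64.2% of genes changed 1.5-fold, 77.6% at 2-fold and 95.5% at 4-fold, with 9 false calls among 14641 unchanged genes. The changed genes, 67, 67 and 66 by fold, all had a mean of at least 1 CPM. The data had 2940 genes called higher and 3198 lower there. Recovery with so many changes, or for members below 1 CPM, was thus not simulated. Values in every pool are given for 11 set genes and for the up to 8 members per comparison with the largest change among those past the test with a mean of at least 1 CPM. Adamts3, Adamts6 and Mmp13 have means below 1 CPM and are given by pool outside this rule. The members and lists were chosen with earlier results of these data known. Alternatives were median-ratio size factors, library totals alone, no low-count filter except a minimum of 1 count, a strict filter (1 CPM in 6 libraries), DESeq2 1.42.0, fits of only the libraries compared, each library left out, both muscle-rich libraries left out, and the replicate number as a block.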

Additional observations from a re-analysis of the deposited data

Results flagged for a closer look

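The cold response of 11 members passed the test of the difference between genotypes, with Mmp13 among them only as a description. Values are the log2 cold response in KO minus that in WT. It was higher in KO for Adamts6 (2.36), Adamtsl3 (1.83), Adamts10 (0.70) and Timp4 (0.64). The value of Mmp13 was 3.45, on few counts. Mmp13 met the count rule through KO pools alone, so its direction is in part set by the rule. The cold response was lower in KO for Mmp23 (-1.40), Adamtsl5 (-1.32), Adam12 (-1.06), Adam15 (-0.60), Adam17 (-0.54) and Adamts9 (-0.53). The 11 of 47 members stand beside 23.5% of all genes tested. For Mmp13, a description with no test, the value was 3.11 without both muscle-rich libraries. Without any 1 of WT room temperature replicates 2 and 3, KO room temperature replicate 6 and WT cold replicate 1 it was 2.89 to 3.34. For cold in KO the value of Mmp13 was 1.43 without both muscle-rich libraries. Without KO room temperature replicate 4 or 6 or any 1 KO cold replicate it was 1.32 to 1.65. Under none of these settings was Mmp13 called.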

How the results depend on the processing

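Of the calls on single members, 17 of 25 for KO against WT at room temperature, 24 of 34 in the cold, 12 of 19 for cold in WT, 3 of 9 for cold in KO and 6 of 11 for the difference held under every alternative run for them. With library totals alone, Adam17 turned to 0.037 and Adamtsl5 to 0.026 for KO against WT in the cold, and the median of all genes there was 0.45. That shift of all genes is built into this setting. Leaving out 1 library at a time gave 21 to 25 calls at room temperature, 29 to 35 in the cold, 15 to 20 for cold in WT, 4 to 9 for cold in KO and 9 to 13 for the difference. The lowest counts for cold in KO came without KO cold replicate 1 or 2 (4 each) and without KO room temperature replicate 4 (5). All other totals of members called, higher and lower together, stayed within 1.5 times the first. By direction, library totals alone gave 30 against 19 higher at room temperature, 3 against 7 lower in the cold, 6 against 13 higher for cold in WT and 3 against 6 lower for the difference. For cold in KO, where 8 were higher and 1 lower, 5 were higher without both muscle-rich libraries or KO room temperature replicate 6, 4 without KO room temperature replicate 4 or KO cold replicate 1 or 2, and 2 were lower without WT room temperature replicate 2. For the difference 3 against 5 were higher with the strict filter or without both muscle-rich libraries. DESeq2 gave no adjusted p for Mmp13 for cold in KO or for the difference. Of 68 values of named members that did not pass, 18 were called under some alternative and 25 changed sign under some.

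The replicate numbers do not pair the pools by their labels, and same-numbered pools deviated together in 1 of 9 pairs (r over 0.1, range -0.34 to 0.28), beside 7 of 18 pairs with different numbers. With the replicate number as a block, possible where groups share numbers, 33 members were called for KO against WT in the cold (26 higher, 7 lower) and 18 for cold in WT (11 and 7). The same 9 libraries without the block, an alternative chosen after seeing the data, gave 36 (29 and 7) and 20 (13 and 7). With the block the cold calls of Adam33 (0.72, FDR 0.067) and Adamts7 (0.61, FDR 0.0502) for KO against WT ended, as did those of Adam11 (0.38, FDR 0.061) and Mmp2 (0.27, FDR 0.056) for cold in WT. Depth limits Mmp13, Mmp25, Mmp27, Timp1 and Adamts3, which had under 10 counts in 3 or more libraries.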
